A study of Homo sapiens with 6 samples.

Results

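In human neuroblastoma cells, 10 genes of retinoic acid signalling were followed: the retinoic acid receptors RARA, RARB and RARG, the retinoid X receptors RXRA and RXRB, the cellular retinoic acid binding proteins CRABP1 and CRABP2, the retinoic acid hydroxylases CYP26A1 and CYP26B1, and the retinaldehyde reductase DHRS3. They were taken by symbol from the 36601 genes of the deposited matrices, and all 10 were found. SK-N-BE(2)-C is an established line grown from a human neuroblastoma. It was profiled by Seq-Well S3, in which each cell shares a tiny well with a barcoded bead and captured molecules are counted by unique molecular identifiers (UMIs). Of the 6 libraries, 2 were from cells given DMSO (the solvent control), 2 from cells given TSA (the usual abbreviation of trichostatin A, which blocks histone deacetylase enzymes, HDACs) and 2 from cells given E6R. The title of the series speaks of an inhibitor of the HDAC complex that is not enzymatic; no source used here gives doses, times or the structure of E6R. The labels do not say that the 2 libraries of a group came from separate cultures, so p-values measure only the spread between these libraries, which may be technical.

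Retinoic acid is made from vitamin A, is carried in the cell by the CRABP proteins, and binds RAR proteins that sit on DNA as pairs with an RXR protein. Without ligand these pairs hold corepressors that contain HDAC3; with ligand they bind coactivators instead. CYP26 enzymes break retinoic acid down, and DHRS3 turns its precursor retinaldehyde back into retinol. RARB, CYP26A1 and DHRS3 are textbook genes induced by retinoic acid, and retinoids are used in neuroblastoma because they make many of its lines differentiate.

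Cells were barcodes with at least 500 genes and at most 20% mitochondrial UMIs: 1861 and 3132 in DMSO replicates 1 and 2, 2467 and 3292 in TSA, and 2891 and 3946 in E6R. Their UMI sums ran from 4206366 to 26180262. The mitochondrial share was between 5.83% and 9.71% in the DMSO and TSA libraries and 1.55% and 1.51% in the E6R libraries, and the deepest 1% of cells in E6R replicate 2 held 22.5% of its UMIs. Between 11 and 58 cell barcodes were shared by any pair of libraries. All 8 adrenergic neuroblastoma markers examined were detected in every library. Of 11 markers of other cells, 6 to 10 were detected per library; the T cell gene CD3E was at 0 in 5 of 6 libraries, PTPRC (leukocytes) was detected in 4, and CD68 (macrophages) was detected in all 6, at 7.20 to 13.8 CPM.

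Promoter sequences are shown first for the RARB and CYP26A1 genes, because these were the 2 of 10 genes whose promoter window held the textbook retinoic acid response element, while their RNA was nearly absent. RefSeq windows (GRCh38.p14) from 250 bases before to 50 after each annotated start were searched on both strands for the half-site AGGTCA or its variants AGTTCA or GGGTCA or GGTTCA, repeated in the same direction with 5 bases between them. All 10 genes had a window, 20 in all. The spaced repeat was found in 31 of 35116 windows of that length (0.0883%), and among the 20 in 1 window of RARB and 1 of CYP26A1. Repeats spaced by 1 or 2 bases were found in none of the 20, against 0.131% and 0.0399% of all windows. Capitals mark the repeat. The RARB stretch is chr3:25428013-25428262 on the plus strand, the bases before a start at 25428263, in an intron of a longer RARB transcript, and its repeat begins 53 bases before that start. The CYP26A1 stretch is chr10:93073797-93073826 on the plus strand, 30 bases around a repeat that begins 90 bases before a start at 93073893; it lies in the 5′ UTR of a longer CYP26A1 transcript, and the repeat reads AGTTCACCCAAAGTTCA on the other strand.
RARB: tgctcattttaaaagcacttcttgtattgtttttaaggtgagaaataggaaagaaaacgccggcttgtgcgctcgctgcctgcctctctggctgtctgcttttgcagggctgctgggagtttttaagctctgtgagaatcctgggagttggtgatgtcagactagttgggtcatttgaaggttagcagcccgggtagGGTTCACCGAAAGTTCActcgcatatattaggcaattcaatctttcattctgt
CYP26A1: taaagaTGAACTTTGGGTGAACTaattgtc
A match of letters is a description of the window and not a measured binding site.

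Levels are given as CPM, the summed UMIs of the cells in a library, scaled to the same total, with library size scaled by TMM (edgeR's correction for composition). UMIs count captured molecules, so they were not divided by gene length. CRABP2 was the most abundant of the 10 genes, with a mean of 192 CPM over the 6 libraries and 14815 UMIs in all. CRABP1 followed at 48.6 CPM, then RARA at 23.8, RXRB at 22.0, RXRA at 16.1 and RARG at 6.6. DHRS3 was at 0.981 CPM, and CYP26B1 (0.271), RARB (0.245) and CYP26A1 (0.0127) were near the limit of detection. The ranges over the 6 libraries overlapped between neighbours in this order from CRABP2 down to RARG, so most of that order does not exceed the spread. Within libraries, CRABP2 was the highest of the 10 genes in all 6, and RARG was above DHRS3 in all 6. Of the 10 genes, 7 (RARA, RARG, RXRA, RXRB, CRABP1, CRABP2 and DHRS3) passed the low-count filter and were tested, and counts of calls speak of these 7 only.

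**Figure D1:**
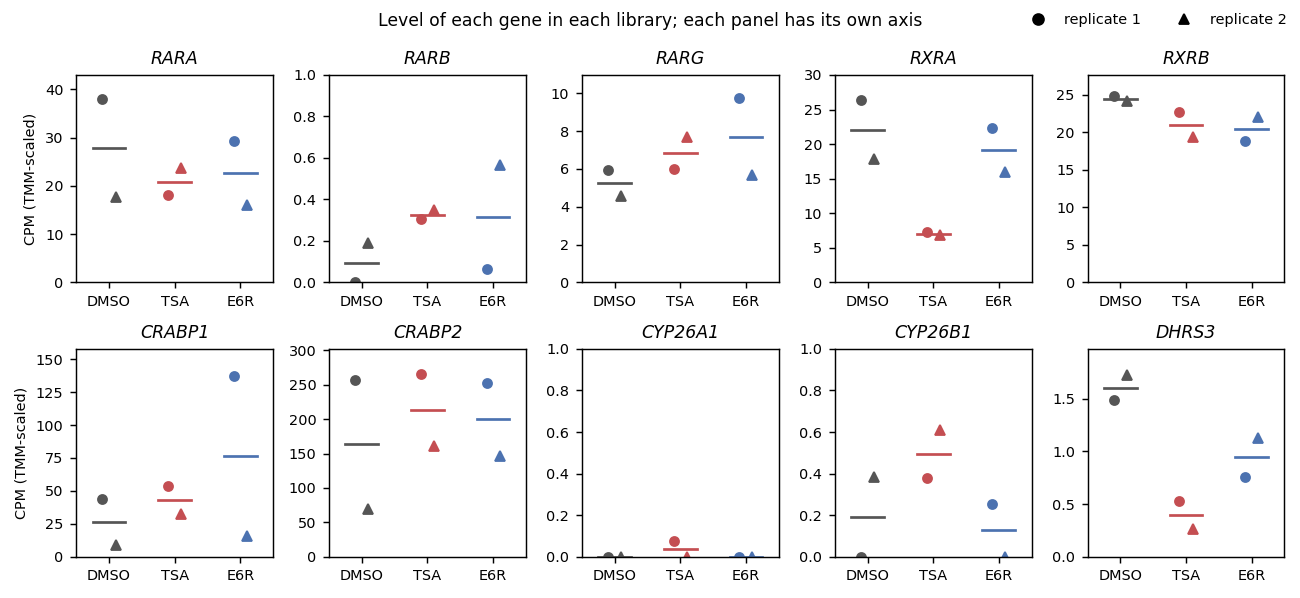
TMM-scaled CPM (vertical axis, each panel its own scale from 0) of the 10 genes in the 6 libraries, by treatment; circles are replicate 1, triangles replicate 2, bars the mean of the 2 libraries. Both TSA libraries of RXRA lie at 7.29 and 6.79, under all other libraries, while CRABP1 and CRABP2 have replicate 1 above replicate 2 under every treatment.

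Under TSA, 1 of the 7 tested genes changed: RXRA, the RXR that pairs with RARs and many other nuclear receptors, was lower. Over all 16763 genes tested, 29.7% were called in this comparison and 13.5% were called lower (edgeR quasi-likelihood test, adjusted p under 0.05), so 1 of 7 is not above the background. At an unadjusted p under 0.05 there were 2 of the 7 (RXRA and DHRS3) in edgeR, against 42.6% of all genes. Under E6R against DMSO none of the 7 was called; in that comparison 0% of all tested genes were called by edgeR, 0 of the 7 genes had an unadjusted p under 0.05, against 17.4% of all genes, and DESeq2 called 0 of the 7 and 424 genes in all. Between E6R and TSA 1 of the 7 was called, RXRA again, higher under E6R; 38.2% of all genes were called there, 18.7% as higher, and 1 of the 7 had an unadjusted p under 0.05, against 48.5% of all genes. The 3 comparisons share libraries, so they are not independent of each other. The median log2 fold change of the 7 genes was -0.22 for TSA against DMSO, -0.20 for E6R against DMSO and 0.17 for E6R against TSA, beside medians of -0.01, 0.03 and -0.09 over all genes. The TSA and DMSO libraries did not overlap in CPM for 4 of the 7 (71.3% of all genes): RARG was higher (36.7% of all genes), and RXRA, RXRB and DHRS3 were lower (34.6%). The E6R and DMSO libraries did not overlap for 2 of the 7 (47.3% of all genes, 24.6% higher and 22.7% lower), RXRB and DHRS3, both lower. The E6R and TSA libraries did not overlap for 2 of the 7 (72.6% of all genes, 33.7% higher and 38.9% lower), RXRA and DHRS3, both higher.

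RXRA (ENSG00000186350, chromosome 9, 134317098 to 134440585, plus strand, GENCODE 29 on GRCh38) was at 26.3 and 17.8 CPM in the DMSO libraries, 7.29 and 6.79 in the TSA libraries, and 22.4 and 16.0 in the E6R libraries. Both TSA values lay below all 4 others, and the DMSO and E6R values overlapped. The means were 22.1 ± 6.05 CPM (SD, n = 2), 7.04 ± 0.354 and 19.2 ± 4.48. RXRA fell by 1.64 on the log2 scale under TSA (SE 0.32), which is 3.13-fold lower, with an edgeR adjusted p of 0.00835. It was 2.72-fold higher under E6R than under TSA (log2 1.44, SE 0.31, edgeR adjusted p 0.00905). E6R and DMSO differed by -0.20 (SE 0.31, 95% interval -0.91 to 0.51, edgeR adjusted p 0.769).

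The RXRA calls rested on few libraries. Against DMSO, the fall was still between -1.98 and -1.30 whichever DMSO or TSA library was left out, but it did not pass in 3 of these fits: with DMSO replicate 1 left out (log2 -1.30, edgeR adjusted p 0.0598), with TSA replicate 1 left out (-1.67, 0.0648) and with TSA replicate 2 left out (-1.56, 0.0832). The call between E6R and TSA was lost without TSA replicate 1 (1.504, edgeR adjusted p 0.0625) and without TSA replicate 2 (1.40, 0.0825). With every cell thinned to 1000 UMIs that difference was 0.90 with an edgeR adjusted p of 0.120. Scaling by total UMIs in place of TMM moved the median of all genes under TSA to -0.32, and RXRA stood at -1.96 there.

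RXRB, the second RXR subunit (chromosome 6, 33193588 to 33200688, minus strand), was at 24.9 and 24.1 CPM under DMSO, 22.6 and 19.4 under TSA, and 18.8 and 22.1 under E6R. Of the 7 tested genes it varied least over the libraries, 1.32-fold from lowest to highest, and the DMSO libraries lay above the 4 others. The log2 difference under TSA was -0.22 (95% interval -0.76 to 0.33, edgeR adjusted p 0.510) and under E6R it was -0.26 (95% interval -0.80 to 0.28, edgeR adjusted p 0.601). RXRG, the third RXR, was at 0 in 4 libraries and at most 0.212 CPM. RXRA therefore made up 51.5% and 42.5% of the UMIs of RXRA and RXRB together under DMSO, 24.4% and 25.9% under TSA, and 54.4% and 42.1% under E6R. The counting intervals (95%, exact Clopper-Pearson) reached at most 31.3% in the TSA libraries and no lower than 35.8% in the others.

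**Figure D2:**
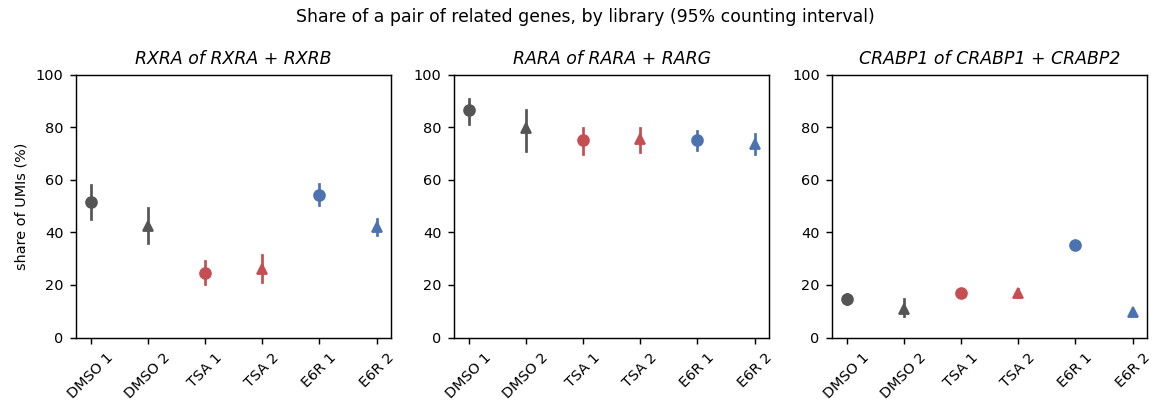
Share of UMIs (vertical axis, %) held by RXRA of RXRA and RXRB, by RARA of RARA and RARG, and by CRABP1 of CRABP1 and CRABP2, in each library; bars are exact 95% counting intervals. The RXRA share is 24.4% and 25.9% in the TSA libraries and 42.1% to 54.4% in the other 4; the CRABP1 share stands apart at 35.2% in E6R replicate 1.

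RARA, the most abundant RAR here (chromosome 17, 40309192 to 40357643, plus strand), was at 38.0 and 17.8 CPM under DMSO, 18.0 and 23.6 under TSA, and 29.3 and 16.0 under E6R. The 3 groups overlapped, and the DMSO libraries alone differed by more than the group means. The log2 differences from DMSO were -0.42 under TSA (SE 0.42, edgeR adjusted p 0.477) and -0.30 under E6R (SE 0.42, edgeR adjusted p 0.746). Without DMSO replicate 1 both turned positive, 0.27 and 0.48, and without E6R replicate 2 the second was 0.11.

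RARG, a receptor of the same family (chromosome 12, 53210567 to 53232980, minus strand), was at 5.95 and 4.59 CPM under DMSO, 6.0 and 7.66 under TSA, and 9.73 and 5.68 under E6R. Its log2 differences from DMSO were 0.38 under TSA (95% interval -0.59 to 1.34) and 0.55 under E6R (95% interval -0.41 to 1.502), with edgeR adjusted p of 0.523 and 0.526. RARA held 86.5% and 79.5% of the UMIs of RARA and RARG under DMSO, 75.0% and 75.5% under TSA, and 75.1% and 73.7% under E6R. Both DMSO shares lay above all 4 treated ones. The counting interval of DMSO replicate 1, 81.0% to 90.8%, lay above those of the treated libraries, and that of DMSO replicate 2, 71.0% to 86.4%, overlapped all 4 of them.

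**Figure D3:**
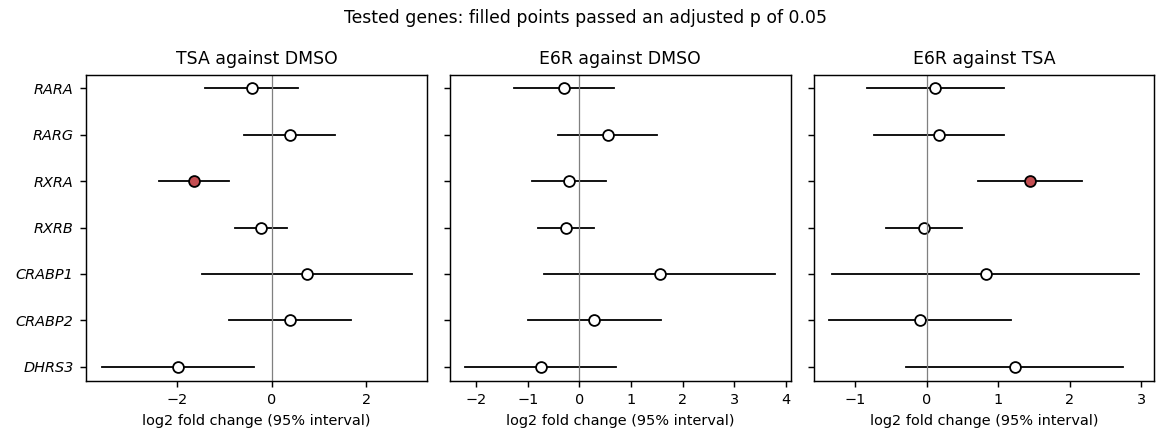
Log2 fold change (horizontal axis) with its 95% interval for the 7 tested genes in the 3 comparisons; filled points passed an edgeR adjusted p of 0.05. RXRA is the only filled gene, at -1.64 for TSA against DMSO and 1.44 for E6R against TSA, and the CRABP1 interval is the widest in each comparison.

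CRABP2, the binding protein that passes retinoic acid to the receptors in the nucleus (chromosome 1, 156699606 to 156705816, minus strand), was at 257 and 69.4 CPM under DMSO, 265 and 161 under TSA, and 252 and 147 under E6R. The replicates of each group were further apart than the group means, and replicate 1 was the higher one in each group. The log2 differences from DMSO were 0.39 under TSA (SE 0.56, 95% interval -0.90 to 1.67) and 0.29 under E6R (SE 0.55, 95% interval -0.99 to 1.57), with edgeR adjusted p of 0.625 and 0.818. Without DMSO replicate 2 they were -0.34 and -0.32, and without E6R replicate 1 the second was -0.05, so their direction turned with 1 library left out.

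CRABP1, the second binding protein, which holds retinoic acid in the cytoplasm (chromosome 15, 78340324 to 78348230, plus strand), was at 43.6 and 8.61 CPM under DMSO, 53.5 and 32.8 under TSA, and 137 and 15.8 under E6R. Its highest library, E6R replicate 1, was 15.9-fold above its lowest, DMSO replicate 2. The log2 difference of E6R from DMSO was 1.55 (SE 0.97, 95% interval -0.68 to 3.79, edgeR adjusted p 0.439). Without E6R replicate 1 it was -0.62. The difference of TSA from DMSO was 0.73 (SE 0.96, edgeR adjusted p 0.590), and -0.09 without DMSO replicate 2. Without the low-count filter, CRABP1 passed in edgeR for E6R against DMSO (1.72, adjusted p 5.94e-07) and against TSA (1.07, adjusted p 0.000476). No other alternative gave these calls. The fit without the filter called 1095 of all genes for E6R against DMSO and 7572 for E6R against TSA.

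Markers of other cells and of mesenchymal neuroblastoma also differed between replicates. The sum of each of these 2 lists was higher in replicate 1 than in replicate 2 of every group, as CRABP1 was. The order over all 6 libraries was not that of CRABP1. Single markers could go the other way: COL1A2 was at 0.850 and 5.36 CPM in DMSO replicates 1 and 2. The endothelial genes CDH5 and PECAM1 were at 17.0 and 21.7 CPM in DMSO replicate 1 and 26.8 and 27.7 CPM in E6R replicate 1, and between 0.188 and 3.42 CPM in the other 4 libraries. The fibronectin gene FN1, a mesenchymal marker, was at 114 and 19.3 CPM under DMSO, 380 and 373 under TSA, and 200 and 13.1 under E6R. The 8 mesenchymal markers, all detected in every library, summed to 1142 and 750 CPM under DMSO, 3288 and 2192 under TSA, and 1941 and 1289 under E6R. Most of this sum was VIM, at 977 and 696 CPM under DMSO, 2840 and 1760 under TSA, and 1652 and 1242 under E6R. COL1A2, PRRX1 and TWIST1 had lower means under TSA than under DMSO, and the other markers of this list had higher ones. Of the 7 tested, 1 was called higher and 1 lower under TSA, beside 16.2% and 13.5% of all genes. The 11 markers of other cells summed to 58.6 and 20.1 CPM under DMSO, 29.1 and 21.9 under TSA, and 79.9 and 14.5 under E6R, with 6 to 10 of them detected. FN1 was singled out after its values were seen. CRABP1 was lower in the cells with an FN1 UMI in 4 of the 6 libraries: in E6R replicate 1 it was at 130 plain CPM in cells with FN1 and 146 in cells without it. In E6R replicate 2 it was at 28.6 and 12.4. Cells with FN1 were deeper in all 6 libraries, with medians of 1624 to 14531 UMIs against 1047 to 1521. The part of these genes in the difference between replicates was not tested.

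CRABP1 RNA was concentrated in part of the cells in some libraries. In DMSO replicate 2, 95.6% of its UMIs were in cells with 1 CRABP1 UMI, and in TSA replicate 2 65.5% were. A cell of E6R replicate 1 held 39 CRABP1 UMIs and a cell of E6R replicate 2 held 45. In E6R replicate 2, 6 cells with 11 or more CRABP1 UMIs carried 31.7% of its UMIs. In E6R replicate 1, 35 such cells carried 26.7%. CRABP1 was at 150 plain CPM in cells of E6R replicate 1 with a CRABP2 UMI and 108 in those without one; in TSA replicate 1 these values were 56.4 and 34.5, and in DMSO replicate 2 they were 8.78 and 9.51. Cells with a CRABP2 UMI were deeper in every library, with a median of 5981 against 1310 UMIs in TSA replicate 1.

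DHRS3 (chromosome 1, 12567910 to 12617731, minus strand) had 68 UMIs in all: 7 and 9 under DMSO, 7 and 3 under TSA, and 12 and 30 under E6R. As CPM these were 1.49 and 1.72, 0.532 and 0.261, and 0.758 and 1.13. Both TSA libraries were below the 4 others, and both E6R libraries lay between TSA and DMSO. The log2 difference of TSA from DMSO was -1.98 (SE 0.70, 95% interval -3.59 to -0.37), and it missed the threshold with an edgeR adjusted p of 0.0663. It passed with scaling by total UMIs (-2.27, adjusted p 0.0431) and with barcodes of 300 or more genes (-2.19, adjusted p 0.0479). E6R differed from DMSO by -0.75 (SE 0.63, edgeR adjusted p 0.568).

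RARB (chromosome 3, 25174332 to 25597932, plus strand), whose promoter with the spaced repeat is printed above, had 0 and 1 UMIs under DMSO, 4 and 4 under TSA, and 1 and 15 under E6R, in 21 of 17589 cells. CYP26A1 (chromosome 10, 93073475 to 93077890, plus strand), the other gene printed above, had 1 UMI in all, in TSA replicate 1. CYP26B1 (chromosome 2, 72129238 to 72148038, minus strand) had 18 UMIs: 0 and 2 under DMSO, 5 and 7 under TSA, and 4 and 0 under E6R. A count of 0 still allows a level of up to 3 UMIs, which is 0.713 plain CPM in the shallowest library, DMSO replicate 1, and 0.115 in the deepest, E6R replicate 2. These 3 genes did not pass the low-count filter, so differences in their level were not tested. CYP26B1 was at 0.380 and 0.609 CPM in the TSA libraries and 0.253 and 0 in the E6R libraries, on 12 and 4 UMIs. Of all tested genes, 72.6% likewise did not overlap between E6R and TSA. The DMSO libraries, at 0 and 0.383 CPM, overlapped both groups. The counting intervals (plain CPM) of TSA replicate 1, 0.114 to 0.817, and E6R replicate 1, 0.0691 to 0.649, overlapped. Those of TSA replicate 2, 0.211 to 1.08, and E6R replicate 2, 0 to 0.141, did not. RARB overlaps TOP2B on the opposite strand, RXRB overlaps SLC39A7 likewise, and RARA and CRABP2 overlap annotated antisense genes; no source used here gives the strand rule of the counting, so reads of such partners may not be separated.

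The share of cells with at least 1 UMI followed depth as well as level. For CRABP2 it was 25.6% and 9.71% under DMSO, 36.2% and 26.2% under TSA, and 37.8% and 26.4% under E6R. For CRABP1 it ran from 1.40% in DMSO replicate 2 to 28.4% in E6R replicate 1. The receptors were seen in few cells: 2.87% to 11.3% for RARA, 3.70% to 9.44% for RXRB, 2.00% to 9.44% for RXRA and 0.766% to 4.53% for RARG. Between 44.4% and 81.2% of the cells of a library had no UMI of any of the 10 genes.

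Thinning each cell to 1000 UMIs, which left out 503 to 1718 shallower cells per library, changed this picture. The share of cells with RXRA was then 2.86% and 1.49% under DMSO, 0.864% and 0.753% under TSA, and 1.96% and 1.53% under E6R, so the TSA libraries were again the lowest. RXRA was not alone in this. Both TSA libraries were also below both DMSO libraries for RARA (1.67% and 1.97% against 4.97% and 2.02%). The RARA values of TSA replicate 2 and DMSO replicate 2 lay close, and their counting intervals, 1.49% to 2.56% and 1.40% to 2.81%, overlapped. Both TSA libraries were below DMSO for RXRB (1.89% and 1.43% against 2.44% and 2.62%) and DHRS3 as well. For RXRB and DHRS3 both E6R libraries were below DMSO too. Thinned DHRS3 was near the limit of detection, seen in 3 and 5 cells under DMSO. Its thinned share was 0.253% and 0.297% under DMSO, 0% to 0.162% under TSA and 0% under E6R. Unthinned, DHRS3 had been higher under E6R (0.415% to 0.634%) than under DMSO (0.287% to 0.376%). RXRB, RARG and CRABP2 had been above DMSO in both TSA and both E6R libraries when unthinned. So had RARB, on 0 and 1 UMIs under DMSO. Shares over all genes were not computed. The unthinned RXRA shares, 5.91% and 2.62%, 3.45% and 2.00%, and 9.44% and 7.35%, overlapped between DMSO and TSA. An exact permutation test (two-sided) of 2 libraries against 2 has a smallest p of 0.3333, above any usual threshold, and that was the smallest in the 30 comparisons of shares. A cell type known to lack these genes was not defined in these libraries, so no background share is given. Barcodes with under 500 genes held RXRA at 33.7 and 17.5 plain CPM under DMSO, 7.86 and 5.37 under TSA, and 28.4 and 18.1 under E6R, close to the cells of the same libraries; the part of free RNA in the shares was not tested.

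**Figure D4:**
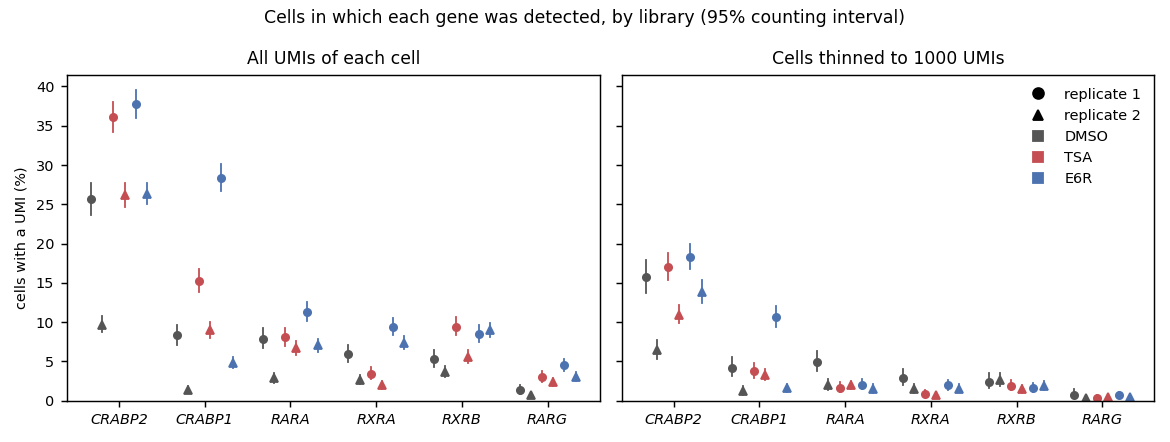
Share of cells with at least 1 UMI (vertical axis, %) for 6 genes in each library, with all UMIs of a cell (left) and with each cell thinned to 1000 UMIs (right); bars are exact 95% counting intervals. Thinned, RXRA is at 0.864% and 0.753% in the TSA libraries and 1.49% to 2.86% in the others. RARA and RXRB are then also lower in both TSA libraries than in both DMSO libraries, for RARA by 1.97% against 2.02% at the closest. Shares over all genes were not computed.

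The observed share of cells with a UMI was set beside the share that the same total would give if spread evenly by depth. Where a gene has few UMIs, most of its cells hold only 1, so the ratio lies near 1 whatever the spread. In DMSO replicate 2 it was 1.008 for RARG, with 24 UMIs, and 0.993 for CRABP1, with 45. An even spread of the receptors can therefore not be read from this ratio. The observed share of cells was 0.89 to 1.01 times the even share for RARA, RARG, RXRA and RXRB over the 6 libraries. It was 0.67 to 0.93 times for CRABP2 and 0.65 to 0.99 times for CRABP1, so their UMIs sat together in fewer cells in some libraries. Thinned to 1000 UMIs per cell, CRABP2 moved from 0.674 to 0.774 in DMSO replicate 1 and from 0.757 to 0.888 in TSA replicate 1. CRABP1 moved from 0.874 to 0.983 and from 0.796 to 0.928 in these libraries. Thinning also leaves fewer UMIs of each gene. The binding proteins had more UMIs than most receptors, so the ratios do not compare the spread of the 2 kinds of gene.

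The wider retinoid pathway was read from 4 lists of 67 genes, of which 49 were tested. Under TSA 10 of the 49 rose and 14 fell, beside 16.2% of all genes that rose and 13.5% that fell; under E6R none was called (4 at an unadjusted p under 0.05 in edgeR, and 0 by DESeq2). Between E6R and TSA 16 were higher and 12 lower under E6R, beside 18.7% and 19.5% of all genes. Leaving out single libraries lowered the 24 calls of TSA against DMSO to 15 and 14 when DMSO replicate 1 or 2 was dropped, and to 9 and 8 when TSA replicate 1 or 2 was dropped, while the calls over all genes went from 4975 to 2508, 2696, 1769 and 1416. The 28 calls between E6R and TSA became 14 and 15 without TSA replicates 1 and 2, and those over all genes went from 6408 to 3175 and 2628. A fit with 1 library in a group assumes that it varies like the others.

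Of 13 tested genes of retinoid uptake and conversion, 2 rose and 4 fell under TSA, beside 16.2% and 13.5% of all genes. STRA6, the cell surface receptor that takes up retinol, was at 170 and 101 CPM under DMSO, 31.2 and 32.5 under TSA, and 144 and 189 under E6R. It fell by 2.09 on the log2 scale under TSA (SE 0.28, edgeR adjusted p 0.00242) and was 5.24-fold higher under E6R than under TSA (edgeR adjusted p 0.000948). The retinol dehydrogenase gene RDH14 fell by 1.05 and the reductase gene DHRS4 fell by 1.39, while RDH13 rose by 1.06 (edgeR adjusted p 0.0232, 0.0460 and 0.0125). FABP5, which carries retinoic acid and fatty acids and has near-identical pseudogene copies that make its count uncertain, fell by 0.85 (edgeR adjusted p 0.0142). These 4 calls were lost without TSA replicate 1 or 2 (edgeR adjusted p 0.0618 to 0.267) and without DMSO replicate 2 (0.0616 to 0.174), and those of RDH14, DHRS4 and FABP5 without DMSO replicate 1 (0.0537 to 0.0804).

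RDH12, a further retinol dehydrogenase gene, had 0 and 3 UMIs under DMSO, 86 and 28 under TSA, and 0 and 6 under E6R. The TSA level was 12.4 times that of DMSO by plain UMI sums, with an exact counting interval from 4.13 to 61.0. That ratio was 6.6 without DMSO replicate 1, 6.31 without TSA replicate 1 and 18.1 without TSA replicate 2; without DMSO replicate 2 the DMSO count was 0, and the TSA level was at least 5.79-fold higher against the limit of 3 counts over the group. It passed in edgeR (adjusted p 0.0463), but not with any one of the DMSO and TSA libraries left out (adjusted p 0.166 and 0.0708 for DMSO replicates 1 and 2, 0.256 and 0.0994 for TSA replicates 1 and 2). Of the enzymes that make retinoic acid, ALDH1A1 and ALDH1A2 had at most 0.191 CPM in any library. ALDH1A3 was at 4.89 and 2.68 CPM under DMSO, 2.73 and 3.31 under TSA, and 12.4 and 4.78 under E6R, and was not called (E6R against DMSO 1.18, SE 0.56, edgeR adjusted p 0.326). Between E6R and TSA, BCO2, a carotenoid cleaving enzyme, was lower under E6R (log2 -2.04, edgeR adjusted p 0.0343); this was lost without the largest cells (edgeR adjusted p 0.0657) and without TSA replicate 1, TSA replicate 2, E6R replicate 1 or DMSO replicate 2 (0.152, 0.134, 0.106 and 0.050006).

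Receptors that pair with RXR, and their relatives, moved in both directions under TSA: of 14 tested, 5 rose and 3 fell, beside 16.2% and 13.5% of all genes. PPARD, a fatty acid receptor that pairs with RXR, was at 13.8 and 19.1 CPM under DMSO, 65.8 and 94.9 under TSA, and 11.8 and 11.02 under E6R. It rose 4.87-fold under TSA (log2 2.28, SE 0.28, edgeR adjusted p 0.00173). NR4A1, an early response receptor, rose 4.86-fold from 15.9 and 6.89 CPM to 56.6 and 53.8 (edgeR adjusted p 0.00430), and its relative NR4A2 rose 4.96-fold from 1.91 and 1.91 to 9.65 and 9.40 (edgeR adjusted p 0.00748). The vitamin D receptor gene VDR rose 3.31-fold (edgeR adjusted p 0.0322). NR2F2, which binds the same kind of repeats as the retinoic acid receptors, was at 44.2 and 21.8 CPM under DMSO, 7.52 and 7.23 under TSA, and 34.1 and 36.9 under E6R, and fell by 2.16 (SE 0.35, edgeR adjusted p 0.00434). NR1H2, the liver X receptor beta gene, fell by 1.18 (edgeR adjusted p 0.0111) and NR2F1 fell by 0.97 (edgeR adjusted p 0.0317).

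Of these receptor calls, those of PPARD and NR4A1 passed under all alternatives run. The calls of NR4A2, VDR, NR1H2 and NR2F1 were lost without TSA replicate 1 (edgeR adjusted p 0.0580 to 0.177) and without TSA replicate 2 (0.0611 to 0.165), and NR2F2 was at 0.0507 without TSA replicate 2. VDR and NR2F1 were also lost without DMSO replicate 1 (edgeR adjusted p 0.146 and 0.147), and VDR, NR1H2 and NR2F1 without DMSO replicate 2 (0.0783, 0.0544 and 0.0639). Scaling by total UMIs ended the calls of VDR, RDH12 and RDH13 (edgeR adjusted p 0.0582, 0.0577 and 0.0502). Thinning ended those of NR4A2, RDH14, DHRS4 and TBL1X (0.0529, 0.0975, 0.169 and 0.0570), and leaving out the largest cells ended those of NR2F1 and DHRS4 (0.0536 and 0.0896). RDH12 and DHRS4 also missed the threshold with barcodes of 300 or more genes (0.0758 and 0.0515) and with all deposited barcodes (0.0721 and 0.0597), and DHRS4 with at most 10% mitochondrial UMIs (0.0616). Against TSA, PPARD stood at -2.82 and NR4A1 at -1.98 on the log2 scale under E6R (edgeR adjusted p 0.000516 and 0.00384).

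Of 14 coregulators, all tested, 3 rose and 6 fell under TSA, beside 16.2% and 13.5% of all genes. HDAC3, the deacetylase of the corepressor complex that unliganded receptors hold, was at 34.0 and 44.2 CPM under DMSO, 121 and 104 under TSA, and 33.7 and 35.4 under E6R, a 2.87-fold rise (log2 1.52, SE 0.21, edgeR adjusted p 0.00262). SIN3A, the scaffold of another HDAC corepressor complex, rose 2.88-fold (edgeR adjusted p 0.00401), and GPS2, a subunit of the HDAC3 complex, rose 2.49-fold (edgeR adjusted p 0.0167). NRIP1, a corepressor of liganded nuclear receptors, was at 75.2 and 68.3 CPM under DMSO, 14.6 and 11.9 under TSA, and 88.5 and 68.7 under E6R, and fell by 2.43 (SE 0.23, edgeR adjusted p 0.000918). TBL1XR1, a further subunit of the HDAC3 complex, fell by 1.94 (edgeR adjusted p 0.00342), its relative TBL1X fell by 1.23 (edgeR adjusted p 0.0420), and the coactivator gene NCOA2 fell by 1.49 (edgeR adjusted p 0.0240). So the genes of the HDAC3 corepressor complex did not move in 1 direction: HDAC3 and GPS2 rose, TBL1X and TBL1XR1 fell. The scaffold gene of that complex, NCOR1, named after its value was seen, fell by 1.07 (edgeR adjusted p 0.00503).

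The calls of HDAC3, SIN3A, NRIP1 and TBL1XR1 passed under all alternatives run. Those of GPS2, TBL1X and NCOA2 were lost without DMSO replicate 1 (edgeR adjusted p 0.0885, 0.277 and 0.107), without TSA replicate 1 (0.0536, 0.148 and 0.168) and without TSA replicate 2 (0.0994, 0.231 and 0.0613), NCOA2 also without DMSO replicate 2 (0.0621), and NCOR1 without TSA replicate 1 or 2 (0.0565 and 0.0517). Between E6R and TSA, NRIP1 was 5.92-fold and TBL1XR1 6.23-fold higher under E6R, and HDAC3 was lower by 1.70 (log2 -1.70; edgeR adjusted p 0.000457, 0.000798 and 0.00105).

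Of the genes known to respond to retinoic acid, 8 of 15 were tested, and under TSA 1 fell and none rose, beside 13.5% and 16.2% of all genes. MEIS2, a homeobox gene, was at 106 and 93.3 CPM under DMSO, 30.2 and 27.2 under TSA, and 95.6 and 86.4 under E6R, and fell by 1.80 (SE 0.19, edgeR adjusted p 0.00123). It was 3.17-fold higher under E6R than under TSA (edgeR adjusted p 0.000846). RARRES1 was higher under E6R than under TSA, 3.60 and 4.10 against 0.912 and 0.871 CPM (log2 2.10, edgeR adjusted p 0.0111), which was lost without TSA replicate 1 or 2 (0.0905 and 0.103). RET, the receptor tyrosine kinase gene that retinoic acid induces in neuroblastoma lines, was at 326 and 132 CPM under DMSO, 127 and 121 under TSA, and 383 and 164 under E6R, and was not called. TGM2, the transglutaminase gene used as a readout of retinoic acid, was at 30.6 and 4.40 CPM under DMSO, 74.2 and 67.8 under TSA, and 52.8 and 4.67 under E6R; its log2 difference of 2.03 under TSA had an SE of 1.07 and an edgeR adjusted p of 0.184.

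More pathway genes differed between E6R and TSA, a comparison that shares its TSA libraries with that of TSA against DMSO. Under E6R, the receptor genes NR2F2 and NR1H2 were higher than under TSA by 2.27 and 0.91 on the log2 scale, and NR4A2 and VDR stood at -2.48 and -2.02 (edgeR adjusted p 0.00224, 0.0205, 0.00297 and 0.0114). Among coregulators NCOA2 and TBL1X were higher by 1.68 and 1.39, and GPS2, SIN3A and the coactivator gene NCOA3 stood at -1.57, -1.43 and -1.06 (edgeR adjusted p 0.0110, 0.0205, 0.00613, 0.00311 and 0.0110). Of the retinoid carriers and enzymes, FABP5, DHRS4 and RDH14 were higher by 1.48, 1.54 and 0.96, and RDH13 stood at -1.03 (edgeR adjusted p 0.00123, 0.0237, 0.0238 and 0.00935). RDH12 was lower under E6R, with 6 UMIs against 114 under TSA (edgeR adjusted p 0.0104), a TSA level 28.9 times that of E6R with a counting interval from 12.9 to 80.4; without TSA replicate 1 the adjusted p was 0.0892. Leaving out TSA replicate 1 ended the calls of VDR, NR1H2, NCOA2, TBL1X, NCOA3, DHRS4, RDH14 and RDH13 (edgeR adjusted p 0.0610 to 0.124). Leaving out TSA replicate 2 ended the same calls except that of NCOA2 (0.0530 to 0.182), and without E6R replicate 1 TBL1X and DHRS4 were lost (0.0566 and 0.0598). Thinning ended those of NR4A2, DHRS4 and RDH14 (0.107, 0.0916 and 0.188), and leaving out the largest cells that of RDH14 (0.0643), besides BCO2.

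**Figure D5:**
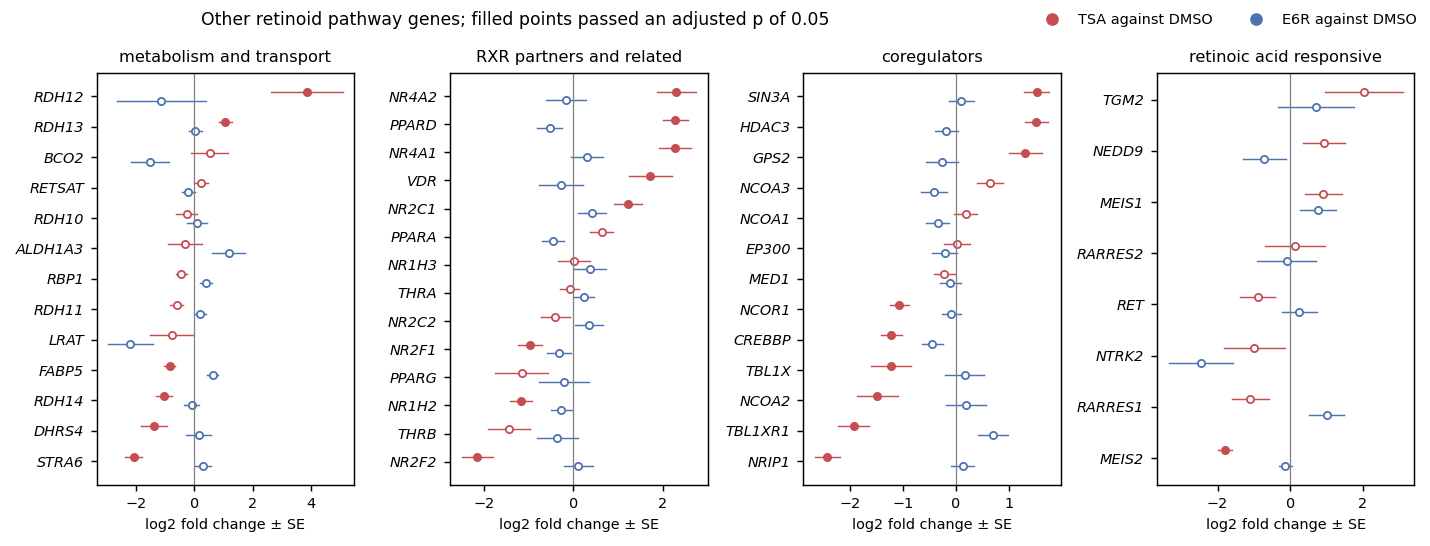
Log2 fold change from DMSO (horizontal axis, bars are ± SE) of 48 of the 49 tested genes of the 4 lists, for TSA (red) and E6R (blue); filled points passed an edgeR adjusted p of 0.05. TSA has 24 filled points, 10 to the right and 14 to the left, and E6R has none.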

How the data were processed

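The deposited files hold whole-number UMI counts per gene and barcode, not normalized by the authors; GRCh38 and STARsolo 2.7.9a are named in the submitters' processing notes, and no source used here gives the annotation or barcode rule. Kept barcodes had 500 genes or more and at most 20% mitochondrial UMIs, and counts were summed per library. The sums of all 6 libraries were tested in one fit with edgeR 4.0.16 (R 4.3.3; TMM, filterByExpr, group only, quasi-likelihood test, Benjamini-Hochberg adjustment over 16763 genes, threshold 0.05), which was tested on simulated data; DESeq2 1.42.0 was an alternative. Plain CPM uses the UMI sum without TMM. Doublets were not called; a fit without the deepest 5% of cells was tried. Intervals (95%) and the limit of 3 counts cover counting error only. All 10 genes are named, and from each list and comparison at most the 4 largest rises and 4 largest falls past the threshold whose groups did not overlap. The genes and lists were chosen with earlier results of these data known.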

Additional observations from a re-analysis of the deposited data

How the results depend on the processing

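With 17 alternatives, RXRA kept its direction under TSA (log2 -1.98 to -1.27) and between E6R and TSA (0.90 to 1.69). The genes called among the 10 for TSA against DMSO were 2 with total UMI scaling and 2 with barcodes of 300 or more genes, DHRS3 being the added one, and 0 to 1 with a library left out. For E6R against DMSO there was 1 without the low-count filter (CRABP1). For E6R against TSA there were 2 without that filter and 0 with cells thinned to 1000 UMIs, and 0 to 1 with a library left out. Of the pathway genes, 3 were called for E6R against DMSO without the filter; with a library left out, 8 to 28 were called for TSA against DMSO and 14 to 31 for E6R against TSA. The causes of these changes were not tested.

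Replicate numbers are shared between groups but no label ties them to a batch. Same-numbered libraries correlated in their deviations at 0.24 (DMSO and TSA), 0.56 (DMSO and E6R) and 0.17 (TSA and E6R) over 7515 genes. The replicate block gave 1, 0 and 1 calls among the 10 genes for TSA against DMSO, E6R against DMSO and E6R against TSA. In the same order, it called 28, 0 and 34 pathway genes, and 6047, 19 and 7567 of all genes.

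Of the 21 fold changes of the tested genes among the 10, 12 changed sign under some alternative, and none of the 12 was called. Between E6R and TSA, RXRB was at 0.0032 with RLE size factors, 0.13 with total UMI scaling, 0.033 in DESeq2, 0.21 without the filter, 0.051 without mitochondrial and ribosomal protein genes, and up to 0.14 (from -0.15) with a library left out. CRABP2 was at 0.069 with total UMI scaling, 0.15 without the filter, 0.0048 thinned, and -0.46 to 0.32 with a library left out. RARA was at -0.0016 without the largest cells and -0.35 thinned, and -0.31 to 0.52 with a library left out; RARG was at -0.077 without the largest cells and -0.19 to 0.53 with a library left out; CRABP1 reached -1.38 without E6R replicate 1. Under TSA, leaving out a library gave -0.95 to 0.27 for RARA, -0.085 to 2.36 for CRABP1 and -0.34 to 1.66 for CRABP2. Under E6R it gave -0.71 to 0.48 for RARA, -0.42 to 0.24 for RXRA, -0.62 to 3.29 for CRABP1 and -0.32 to 1.66 for CRABP2. Of 52 named pathway results, 20 passed under all 17 alternatives and 0 reversed; 39 of 120 mean shares of cells moved by over 1 SD, 16 of them on thinning.

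Depth limits RARB, CYP26A1, CYP26B1 and DHRS3, which had 1 to 68 UMIs in all.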

Other observations

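RBP4, the retinol carrier of blood plasma, had 21 UMIs, all in DMSO replicate 2, in 14 cells of which 1 held 8. TTR, its partner in plasma, had 8 UMIs in that library and 0 to 4 in each of the others.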
